A study of Mus musculus with 2 samples.

Results

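Serpina3n-high cells of the retinal pigment epithelium (RPE) were described in single-cell RNA sequencing of the mouse RPE layer. They were selected on measured values: at least 10 UMIs (molecular tags, each counting 1 captured RNA molecule) and 1000 CPM of Rpe65, and at least 1000 CPM of Serpina3n, where CPM is the share of a gene in the UMIs of the cell (10000 CPM are 1% of them). The rule kept 195 cells, 182 from the Dox library and 13 from the control library, of 3088 RPE cells that met the Rpe65 part of it and of 35627 cells that passed quality control. The remaining RPE cells, with less than 1000 CPM of Serpina3n, are called Serpina3n-low here, 1406 in Dox and 1487 in control.

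Male C57BL/6J mice, 3 months of age, received a subretinal injection of 1 µl, which held either doxorubicin at 100 ng/µl (Dox, an anthracycline that damages DNA) or PBS alone (control), and the RPE layer was taken 7 days later. Each condition had 1 library, pooled from 10 eyes of 5 mice, so that mice could not be told apart and no difference could be tested over replicates. Injected and uninjected areas of the RPE were not separated, and cells of the layer other than RPE were not removed before sequencing. The Dox library held 15649 cells and 103997248 UMIs, the control library 20381 cells and 117731270 UMIs, and 441 cell barcodes occurred in both libraries, among them 4 of the Serpina3n-high Dox cells and none of the 13 control cells. All intervals below are 95% intervals of counting error only and do not hold the spread between mice.

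The RPE is the pigmented layer behind the photoreceptors, which renews the visual pigment, takes up shed outer segments and carries nutrients between choroid and retina. Serpina3n encodes a secreted inhibitor of serine proteases that astrocytes and liver make in an acute-phase response, the program that cytokines of the IL-6 family switch on through STAT3. A2m (alpha-2-macroglobulin, a broad protease trap) and Timp1 (an inhibitor of matrix metalloproteases) are members of the same program, and Gpnmb is a lysosomal and melanosomal glycoprotein. Rpe65 encodes the isomerase of the visual cycle and marks the RPE.

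Serpina3n lies on chromosome 12 (GRCm38, 104406729 to 104414329, plus strand), A2m on chromosome 6 (121635376 to 121679227), Timp1 on chromosome X (20870166 to 20874735), Gpnmb on chromosome 6 (49036546 to 49070929) and Rpe65 on chromosome 3 (159599175 to 159625321), all on the plus strand in the GENCODE vM21 annotation. The 250 bases before the RefSeq start of Serpina3n (chr12:104406458-104406707), of Timp1 (chrX:20869916-20870165) and of Cdkn1a, a target gene of p53 described below (chr17:29090729-29090978), all GRCm38.p6 and plus strand, are shown as the gene of the rule, a protease inhibitor gene of the acute phase and a p53 target. Capitals mark matches to the p53 motif, a decamer searched on both strands.

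Serpina3n: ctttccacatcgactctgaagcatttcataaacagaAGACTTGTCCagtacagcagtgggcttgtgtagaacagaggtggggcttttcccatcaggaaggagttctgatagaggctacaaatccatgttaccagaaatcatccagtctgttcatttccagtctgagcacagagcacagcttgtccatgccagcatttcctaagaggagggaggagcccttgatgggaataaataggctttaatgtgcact

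Timp1: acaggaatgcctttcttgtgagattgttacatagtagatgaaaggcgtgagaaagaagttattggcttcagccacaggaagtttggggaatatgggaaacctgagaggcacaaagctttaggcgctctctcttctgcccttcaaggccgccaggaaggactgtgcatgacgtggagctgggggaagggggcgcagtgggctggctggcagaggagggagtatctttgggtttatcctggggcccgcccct

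Cdkn1a: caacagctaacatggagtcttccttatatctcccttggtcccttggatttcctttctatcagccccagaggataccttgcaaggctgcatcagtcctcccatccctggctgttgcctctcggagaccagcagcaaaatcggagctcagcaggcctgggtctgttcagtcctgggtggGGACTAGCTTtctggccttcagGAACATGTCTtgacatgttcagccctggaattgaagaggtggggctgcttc

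The Serpina3n window held 1 match to the p53 motif, the Timp1 window none, this Cdkn1a window 2 and the window of a second Cdkn1a start (chr17:29093519-29093818) none, whereas 8.36% of all 32851 promoter windows held at least 1. The STAT motif, TTC and GAA with any 3 bases between them, was found in 8.30% of all windows and in none of those of Serpina3n, Timp1, Gpnmb, Chil1, Osmr and Cdkn1a. The interferon response motif, GAAA repeated after any 2 bases, was found in 3.44% of all windows and in none of these. Of 28 windows matched to 25 of the 30 genes of the acute-phase list, 4 (14.3%) held the STAT motif, namely those of Socs3, Steap4, Fgb and Tnfrsf1a. These matches describe the letters of a 300-base window and are not binding sites.

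Serpina3n-high cells made up 11.5% of Dox RPE cells (182 of 1588, Clopper-Pearson interval 9.94 to 13.1%) and 0.867% of control RPE cells (13 of 1500, 0.462 to 1.48%). In the Dox cells Serpina3n ranged from 1008 to 16630 CPM with a median of 4619, and from 2 to 602 UMIs per cell. In the 13 control cells it ranged from 1061 to 7357 CPM with a median of 2857. Above the threshold the values formed a second mode in Dox and a thin tail in control, as the histogram of Serpina3n by library shows. At the threshold itself, the 16 Dox cells just inside it (1008 to 1239 CPM of Serpina3n) held 1888 CPM of A2m, and the 12 just outside it (807 to 994 CPM) held 774 CPM. Their median Serpina3n counts were 8.5 and 8 UMIs, so few counts set the side on which such a cell fell. In control, the 2 cells just inside held 399 CPM of A2m and the 4 just outside 351 CPM.

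**Figure D1:**
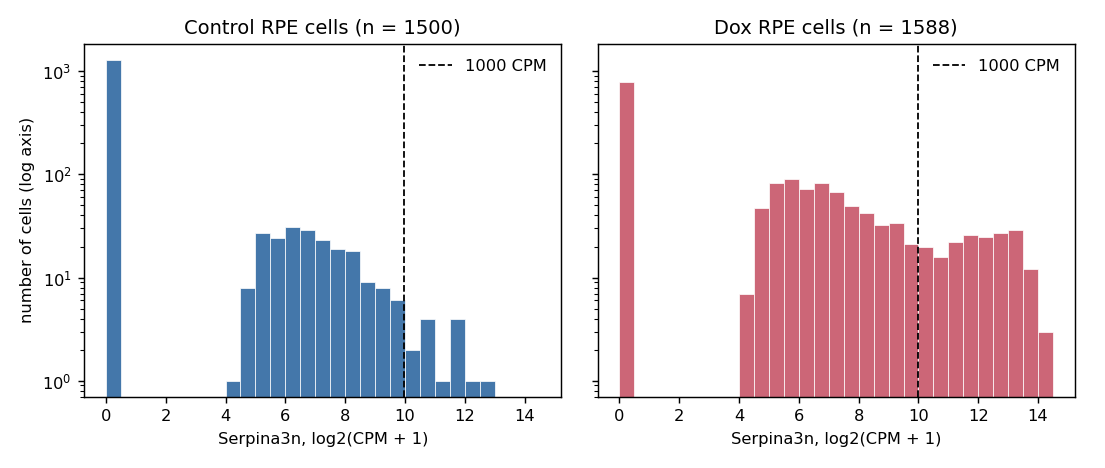
Number of RPE cells (log axis) by Serpina3n level, as log2(CPM + 1), in the control and the Dox library; the dashed line marks 1000 CPM, the threshold of the rule. Past it lie 13 of 1500 control cells and 182 of 1588 Dox cells.

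The Serpina3n-high cells were deeper than the Serpina3n-low cells. The median doublet score of Scrublet was 0.291 in control high against 0.120 in control low cells, and 0.137 against 0.0909 in Dox, and the part of doublets in the control comparisons was not tested beyond leaving out the highest scores. The median was 28176 UMIs and 4764 genes per cell in Dox high cells against 16608 UMIs and 3891 genes in Dox low cells, and 33954 UMIs in control high against 15835 in control low cells. The median mitochondrial share was 2.1% in Dox high and 2.6% in Dox low cells. Within cells of 10000 to 40000 UMIs the log2 ratio of Dox high to Dox low cells was 3.52 for A2m, 2.59 for Cdkn1a and -2.75 for Enpp2, and on cells thinned to 5000 UMIs it was 3.27, 1.96 and -2.64. All of these were past 2-fold, as they were without either setting.

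Rpe65 itself, which the rule used, was at a median of 2198 CPM (quartiles 1538 and 2969) in Dox high cells and 5420 CPM (3884 and 6826) in Dox low cells. The selected cells thus lay nearer to the lower Rpe65 bound, and the number found depended on it. With a bound of 3000 CPM, 45 Dox and 7 control cells remained, or 3.62% and 0.578% of the RPE cells. A further 960 Dox and 131 control cells had at least 1000 CPM of Serpina3n but failed the Rpe65 part, with median depths of 789 and 964 UMIs. The median Rpe65 of these Dox cells was 1601 CPM, above the CPM bound, so the floor of 10 Rpe65 UMIs also set the number found. At least 10 UMIs of Serpina3n were present in 89 of the Dox and 17 of the control cells, and 42 of the 89 had 500 to 1000 CPM of Rpe65. Those 42 cells held 51434 CPM of Trf, 3472 CPM of A2m and 52889 CPM of Ttr (transthyretin, the retinol carrier that marks RPE cells in these libraries), against 57464, 2666 and 70294 CPM in the Dox high cells. The 35 cells under 500 CPM of Rpe65 held less Ttr, 34608 CPM, with 41355 CPM of Trf, 2248 CPM of Dcn and 7531 CPM of the fibroblast list, which was at 416 CPM in the Dox high cells.

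The other RPE markers were present in the Serpina3n-high cells, at somewhat lower levels. All 16 markers of the RPE list other than Rpe65 were below the Dox low cells on the log2 ratio of CPM, with a median of -0.44, beside -0.19 over the 13037 genes with at least 20 UMIs. Ttr was at 70294 CPM in Dox high and 72483 CPM in Dox low cells, a log2 ratio of -0.04. Rdh5, a retinol dehydrogenase of the visual cycle, was at 5744 and 6620 CPM. Rgr, the opsin-like retinal photoisomerase, was at 7204 and 12741 CPM, a log2 ratio of -0.82 (-0.84 to -0.81). Of 13 visual cycle genes, 12 were lower and 1, Rbp4, was higher (median -0.52), in a comparison in which 31.4% of all genes were higher.

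Markers of other cell types were few. The summed fibroblast list was at 416 CPM in Dox high and 1137 CPM in Dox low cells, and at 775 and 1747 CPM in the control groups, with Dcn (decorin) the most abundant of its 12 genes in Dox. Macrophage markers summed to 98.8 CPM in Dox high and 190 CPM in Dox low cells, with Csf1r first. The melanocyte list summed to 1724 and 1646 CPM, with Dct first, a gene that RPE cells also express. NK and T cell, rod and red blood cell lists each summed to 3.1 CPM or less in Dox high cells. In control high cells these 3 lists were at 0 CPM. Smooth muscle markers summed to 209 CPM in Dox high and 290 CPM in Dox low cells with Acta2 first, Schwann cell markers to 77.8 and 96.9 CPM with Sox10 first, and endothelial markers to 23.3 and 28.0 CPM with Plvap first. Of the Müller glia list only Glul, which RPE cells express, was present in Dox high cells, at 1314 CPM against 1005 CPM, and Aqp4, Slc1a3 and Gfap were at 0.

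Between Dox high and Dox low cells, 2702 genes had at least 50 UMIs over both groups and 50 CPM in either, with Serpina3n and Rpe65 left out. Of these, 76 (2.81%) were at least 2-fold higher and 89 (3.29%) at least 2-fold lower in the Serpina3n-high cells. Since the rule set these groups apart, the counts are a description, and nothing is read from them about the choice of cells. Ratios are of CPM with 0.5 counts added.

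A2m was at 2666 CPM in Dox high, 265 CPM in Dox low, 1181 CPM in control high and 206 CPM in control low cells. In single Dox high cells its quartiles were 1243, 1952 and 3489 CPM, and 145 of 182 cells exceeded the 95th percentile of the Dox low cells, 1086 CPM. The other high cells lay within the range of the low cells. The log2 ratio was 3.33 (3.29 to 3.37) in Dox and 2.52 (2.38 to 2.66) in control. Of the 457 A2m UMIs in control high cells, 47.5% came from a single cell.

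Timp1 was at 124 CPM in Dox high and 6.42 CPM in Dox low cells, a log2 ratio of 4.26 (4.02 to 4.53), the largest of the 2702 genes past the floor of 50 UMIs and 50 CPM. In control it was at 134 and 10.1 CPM, a log2 ratio of 3.75 (3.28 to 4.17). Its level in Dox high and control high cells overlapped, with a log2 ratio between them of -0.13 (-0.53 to 0.32). Chil1, a secreted chitinase-like protein of reactive glia and macrophages, was at 2995 CPM in Dox high, 298 in Dox low, 1819 in control high and 288 in control low cells. C4b, the fourth component of complement, was at 96.9, 6.97, 49.1 and 7.51 CPM in the same order, and Osmr, the receptor subunit for oncostatin M, at 363, 85.0, 233 and 84.0 CPM. The control values rested on few cells: Timp1 was at 0 in 4 of the 13 with a median of 68.8 CPM and a highest value of 620, and Chil1 had a median of 560 CPM with 3 cells at 3477 to 7581.

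Lcn2 (lipocalin 2, an iron-siderophore binder of the acute phase) was below the 50 CPM floor, with 132 UMIs in Dox high against 10 in the far larger Dox low group. Of the 30 acute-phase genes, 22 had at least 20 UMIs, 13 of them higher and 9 lower in Dox high cells, and 9 were past 2-fold higher, beside 31.4% and 2.59% of all genes with at least 20 UMIs. Their median log2 ratio was 0.26, while the median over all genes with 20 UMIs was -0.19. The difference was carried by a part of the list: Cebpd, an acute-phase transcription factor, was at 540 and 481 CPM, a log2 ratio of 0.17 (0.11 to 0.23). The median moved between 0.01 and 1.39 over the alternative settings. Classical liver products of the response (Hp, Saa1, Lrg1, Fgg, Fgb and Orm1) were at 0 UMIs in Dox high cells, which allows up to 3 UMIs of each among 4859485.

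Other members of the Serpina3 cluster, whose sequences are near copies so that reads may be shared between them, gave 6 UMIs of Serpina3i and none of Serpina3f, Serpina3g, Serpina3k and Serpina3m in Dox high cells, against 28465 UMIs of Serpina3n. Of 9 other serpins measured, 3 were higher and 6 lower, a share near the 31.4% of all genes that were higher, with a median of -0.64 that was 0.34 without the cells of most fibroblast RNA. Serpine2 (protease nexin 1) was at 107 CPM in Dox high and 255 CPM in Dox low cells. Serpinb6a, an intracellular serpin and the most abundant of the 9, was at 160 and 133 CPM.

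**Figure D2:**
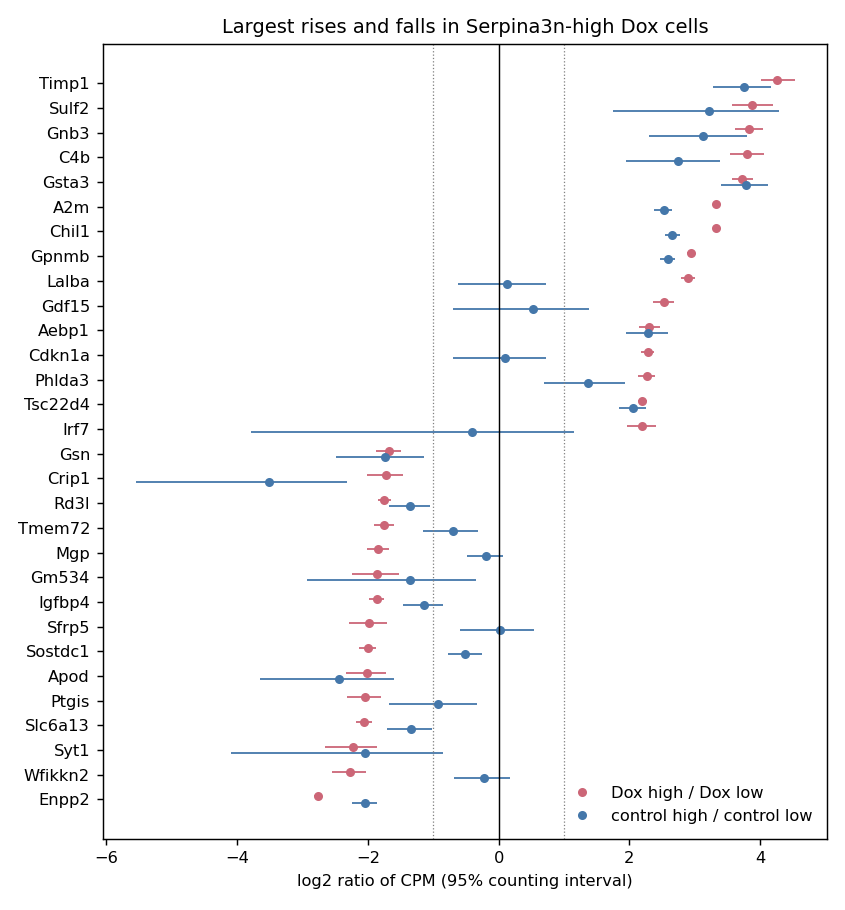
Log2 ratio of CPM for the 15 largest rises and 15 largest falls of Dox high against Dox low cells (red), with the same genes in control high against control low cells (blue); lines are 95% counting intervals and dotted lines mark 2-fold. Timp1, A2m, Chil1 and Gpnmb were past 2-fold in both libraries, whereas Lalba, Gdf15 and Cdkn1a were past it in Dox, with control intervals across 0.

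Trf (transferrin, the iron carrier of plasma, which the RPE also makes) was at 57464 CPM in Dox high and 14881 CPM in Dox low cells, and at 48082 and 18894 CPM in control. The single-cell quartiles were 39175, 52396 and 69083 CPM in Dox high against 6789, 10489 and 15669 CPM in Dox low cells, and 155 of 182 high cells exceeded the 95th percentile of the low cells. The other high cells lay within the range of the low cells. Gpnmb was at 1794, 234, 1858 and 310 CPM in Dox high, Dox low, control high and control low cells, and its log2 ratio was 2.94 (2.89 to 2.98) in Dox and 2.58 (2.47 to 2.69) in control. The 13 control cells ranged from 0 to 7315 CPM of Gpnmb with a median of 859, and 36.7% of their UMIs came from 1 cell.

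Ctsd, the aspartic protease that digests outer segments in the RPE, was at 6249 and 2467 CPM in Dox and at 8910 and 2190 CPM in control. Ctsb, a cysteine protease of the lysosome, was at 1975 and 818 CPM in Dox and at 2675 and 842 CPM in control. Of 38 lysosomal genes, 33 were higher and 5 lower in Dox high cells, 6 of them past 2-fold higher, with a median of 0.38, beside 31.4% of all genes higher and 2.59% past 2-fold higher. In control 28 of 38 were higher (median 0.43), beside 48.4% of all genes. Lysosomal RNA as a sum was at 22959 CPM in Dox high and 14916 CPM in Dox low cells. Gsta3, a glutathione transferase, was at 240 CPM in Dox high, 18.1 in Dox low, 207 in control high and 15.1 in control low cells. Pcolce, an enhancer of procollagen processing, was at 2701, 682, 1561 and 625 CPM, and Gas6, the ligand of the phagocytic receptor Mertk, at 426, 126, 199 and 89.5 CPM.

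Further large ratios belonged to genes outside these lists or of mixed function. Sulf2, an extracellular sulfatase of heparan sulfate, was at 68.3 CPM in Dox high and 4.65 CPM in Dox low cells. Gnb3, a G-protein beta subunit known from cones and bipolar cells, was at 137 and 9.61 CPM, and the rod markers summed to under 3 CPM in both groups. Tsc22d4 was at 617 and 134 CPM in Dox and at 512 and 123 CPM in control. Aebp1 was at 129 and 26.2 CPM in Dox and at 227 and 47.1 CPM in control.

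Most p53 targets measured were higher in the Dox high than in the Dox low cells. Cdkn1a, the cyclin-dependent kinase inhibitor p21 that p53 induces after DNA damage, was at 308 CPM in Dox high, 63.4 in Dox low, 46.5 in control high and 44.5 in control low cells. Its log2 ratio was 2.28 (2.18 to 2.38) in Dox, and in control 0.10 (-0.70 to 0.73) on 18 UMIs in the high cells, with 10 of the 13 control cells at 0. Between Dox high and control high cells the log2 ratio was 2.69 (2.06 to 3.49). Single Dox high cells had quartiles of 103, 213 and 435 CPM, and 50 of 182 exceeded the 95th percentile of the Dox low cells, so that this gene separated the groups less than A2m did.

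Gdf15, a secreted stress cytokine, was at 131, 22.8, 23.3 and 17.0 CPM in the 4 groups in the same order. Phlda3, an inhibitor of AKT, was at 176, 36.6, 62.0 and 24.5 CPM. Ephx1, the microsomal epoxide hydrolase, was at 398, 181, 227 and 153 CPM. Of 33 p53 targets measured, 25 were higher and 8 lower in Dox high than in Dox low cells, 14 past 2-fold higher and 0 past 2-fold lower (median 0.90). Of all 13037 genes with at least 20 UMIs, 31.4% were higher and 2.59% past 2-fold higher in the same comparison, and in control 48.4% of 13068 were higher. In control, 20 were higher and 12 lower of 32 (median 0.12). Of 23 senescence regulators, a list without Cdkn1a, 8 were higher and 15 lower in Dox high cells, with a median of -0.63. That share is near the 31.4% of all genes that were higher, while 9 were past 2-fold lower, beside 10.3% of all genes. The sum of this list was higher, at 3958 CPM in Dox high and 3129 CPM in Dox low cells, with Igfbp7 first at 2100 and 1077 CPM.

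Most interferon-stimulated genes were higher in Dox high than in Dox low cells. Ifitm3, a membrane protein that restricts viral entry, was at 597 CPM in Dox high, 179 in Dox low, 103 in control high and 190 in control low cells. Bst2 (tetherin) was at 779, 410, 152 and 235 CPM and Irf7, the transcription factor that amplifies type I interferon, at 65.0, 14.3, 5.17 and 8.54 CPM, the control high value resting on 2 UMIs. The log2 ratio of Ifitm3 was 1.74 (1.68 to 1.81) in Dox and -0.86 (-1.37 to -0.43) in control. Of 30 interferon-stimulated genes, 28 were higher and 2 lower in Dox high cells, 12 past 2-fold (median 0.88), against 17 higher and 13 lower of 30 in control (median 0.04), beside the same 31.4% and 2.59% of all genes in Dox and 48.4% higher in control.

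Guanylate-binding proteins and immunity-related GTPases, which interferon gamma induces, had 11 genes higher and 4 lower of 15 in Dox high cells (median 0.57), and a median of -0.31 in control. MHC class I genes were mostly higher in the high cells of either library. H2-K1, the classical heavy chain, whose relatives share sequence with it, was at 240 CPM in Dox high, 71.6 in Dox low, 220 in control high and 79.2 in control low cells. Of 16 genes of the presentation pathway, 14 were higher in Dox high cells (median 0.73), and 12 of 17 in control high cells (median 0.40). The shares of all genes that were higher, for this list, the guanylate-binding proteins and complement alike, were 31.4% in Dox and 48.4% in control. In the complement list, with 8 genes higher and 5 lower in Dox high cells (median 0.67), Clu (clusterin) was at 14167 and 8919 CPM in Dox and at 13709 and 8536 CPM in control.

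**Figure D3:**
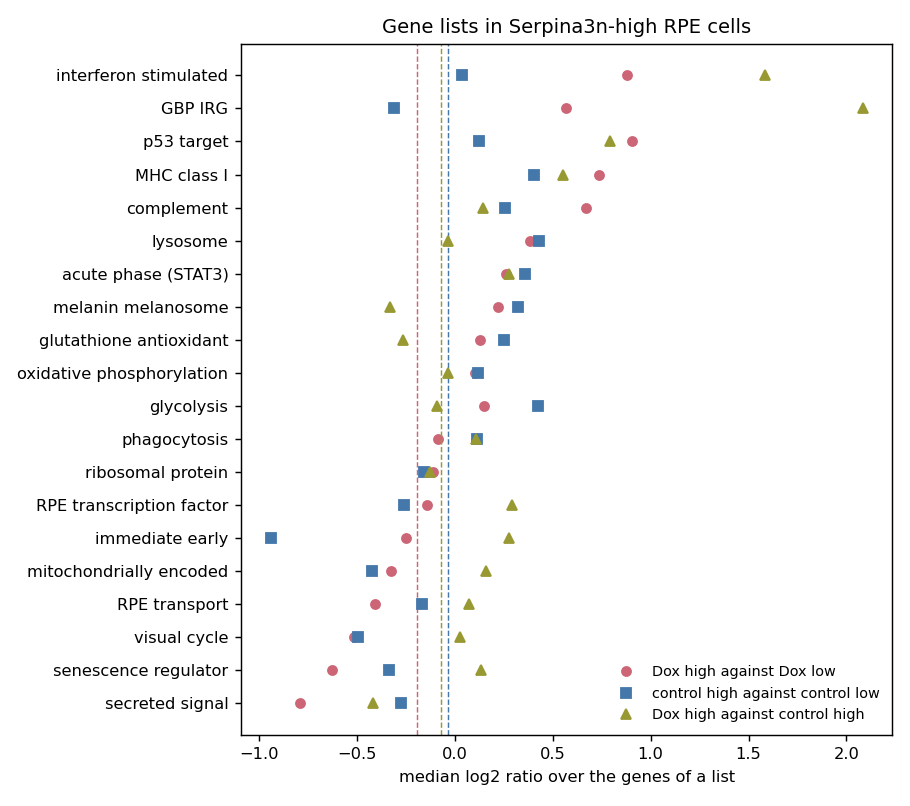
Median log2 ratio over the genes of each list with at least 20 UMIs, in Dox high against Dox low (circles), control high against control low (squares) and Dox high against control high cells (triangles); dashed lines are the medians over all such genes. Interferon and p53 lists stood at 0.88 and 0.90 in Dox and at 0.04 and 0.12 in control, whereas the lysosome list stood at 0.38 and 0.43.

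Genes that were lower in the Serpina3n-high cells included secreted factors and transporters of the RPE. Enpp2 (autotaxin, which makes lysophosphatidic acid) was at 384 CPM in Dox high, 2608 in Dox low, 558 in control high and 2308 in control low cells, a log2 ratio of -2.76 (-2.83 to -2.70) in Dox and -2.04 (-2.25 to -1.85) in control. Slc6a13, a GABA and taurine transporter, was at 113, 472, 189 and 483 CPM, and Mt3, a metallothionein, at 1494, 4223, 2235 and 4289 CPM. These 3 genes were lower in both libraries.

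Sostdc1, an antagonist of BMP and Wnt, was at 114, 458, 318 and 454 CPM in the 4 groups. Wfikkn2, an inhibitor of myostatin and GDF11, was at 25.7, 125, 121 and 143 CPM, and Sfrp5, a Wnt antagonist, at 22, 87.7, 72.4 and 72.2 CPM. For Wfikkn2 and Sfrp5 the control interval included 0. Of 28 secreted signals, 21 were lower and 7 higher in Dox high cells, 12 of them past 2-fold lower (median -0.79), beside 31.4% higher and 10.3% past 2-fold lower over all genes. Some of the other large falls moved with RNA of other cell types. Without the RPE cells above the 75th percentile of fibroblast RNA, the log2 ratio went from -2.01 to 0.06 for Apod, from -1.84 to -0.21 for Mgp, from -1.68 to -0.36 for Gsn and from -1.86 to -0.55 for Igfbp4. Without those above the 75th percentile of the RNA of all other cell types, that of Crip1 went from -1.73 to -0.07. Enpp2 stood at -2.77 and -2.88 under these settings.

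Of 71 nuclear genes of oxidative phosphorylation, 51 were higher and 20 lower in Dox high cells with a median of 0.10, and 1, Cox7a1, was past 2-fold, beside 31.4% of all genes higher and an all-gene median of -0.19. All 13 mitochondrially encoded genes were lower (median -0.33). Ribosomal protein genes had a median of -0.11, glycolysis genes 0.15, heat shock genes -0.05 and genes of the unfolded protein response -0.05. The antioxidant list, with Gpx4 (the lipid peroxide reductase) first at 10069 and 5962 CPM, had 19 genes higher and 13 lower (median 0.13), beside the same 31.4%.

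All 3 metallothioneins measured were lower (median -0.73), and their sum was 13470 CPM in Dox high and 22888 CPM in Dox low cells. Of 27 transporters and channels of the RPE, 20 were lower and 7 higher (median -0.41), and of 20 junction and keratin genes 14 were lower and 6 higher (median -0.27), shares near the 31.4% of all genes that were higher. RPE transcription factors had a median of -0.14, melanosome genes 0.22, phagocytosis genes -0.09 and matrix genes and protease inhibitors -0.08. The iron list had a median of -0.09 although Trf raised its sum, BCL2 family genes -0.10, genes of reactive glia -0.14, cell cycle genes -0.22 and nuclear long noncoding RNAs -0.37. The immediate early list had a median of -0.25. The medians of the immediate early, iron, BCL2, phagocytosis, matrix, reactive glia, noncoding RNA, ribosomal protein, heat shock and unfolded protein lists turned above 0 under at least 1 alternative, so that no direction is given for these lists.

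The level of Serpina3n was then divided into steps, to see which genes followed it within and below the selected cells. In Dox, A2m was at 215 CPM in the 779 cells without Serpina3n, at 237 in 466 cells above 0 to 200 CPM, at 772 in 161 cells of 200 to 1000 CPM, at 1656 in 35 cells of 1000 to 2000 CPM, at 1918 in 61 cells of 2000 to 5000 CPM, and at 3435 in 86 cells of 5000 CPM and above. Cdkn1a went 40.0, 49.7, 301, 287, 352 and 286 CPM over the same steps. A2m was thus higher at each further step, while Cdkn1a was not. At 2000 to 5000 CPM of Serpina3n the Cdkn1a interval was 324 to 383 CPM, and at 5000 CPM and above 265 to 308 CPM. Serpina3n chose the cells and set the steps, so these values are a description and set no gene apart from another. The step of 200 to 1000 CPM held shallow cells, with a median of 6642 UMIs, in which few Serpina3n UMIs give a high CPM.

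Trf went from 12689 CPM without Serpina3n to 33263 at 200 to 1000 CPM and 60053 at the highest step, and Enpp2 from 2840 to 1019 and 314 CPM. In control, Trf went 16946, 25139, 40061, 48570, 44502 and 54002 CPM over the 6 steps, and Enpp2 2427, 1863, 1215, 453, 799 and 338 CPM. The 3 selected steps of control held 5, 6 and 2 cells, and neither gene followed the order of Serpina3n among them. Cdkn1a in control was at 41.3 CPM without Serpina3n, at 62.9 (54.6 to 72.2) above 0 to 200 CPM, at 50.9 (37.8 to 67.1) at 200 to 1000 CPM, and at 34.4, 21.2 and 127 CPM in the 3 selected steps, on 6, 3 and 9 UMIs. At 200 to 1000 CPM the control interval of Cdkn1a lay below the Dox value of 301 CPM.

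**Figure D4:**
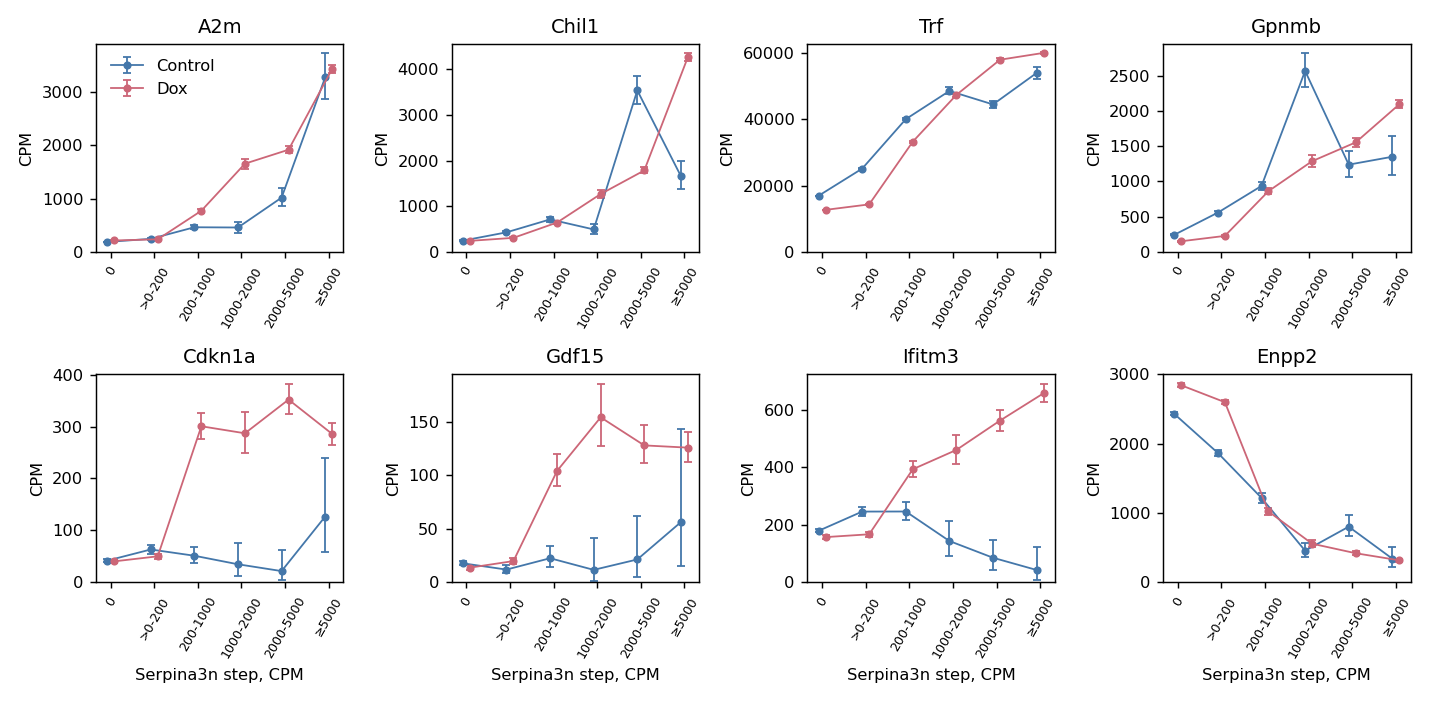
CPM of 8 genes (y axes from 0) by step of Serpina3n in control (blue) and Dox (red) RPE cells, with 95% Poisson intervals. In Dox, A2m and Trf were higher and Enpp2 lower at each further step, while Cdkn1a was at 301 CPM at 200 to 1000 CPM of Serpina3n and at 286 CPM at the highest step.

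Among the 182 Dox high cells, Spearman's rho of the cells' CPM with Serpina3n was 0.60 for Chil1, 0.54 for Timp1, 0.48 for A2m, 0.47 for Tsc22d4 and 0.41 for Gpnmb and for Pcolce. It was 0.34 for Trf, 0.06 for Cdkn1a and -0.16 for Enpp2, and 0.05 and 0.19 for the summed p53 and interferon lists. All cells share a library, and rho with the cell's UMIs was 0.21 for Serpina3n, 0.44 for Timp1 and -0.02 for A2m. The p53 and interferon sums had a rho of 0.32 with each other. Serpina3n chose the cells, and for Osmr rho was 0.27, so these values describe the cells and rank no list.

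**Figure D5:**
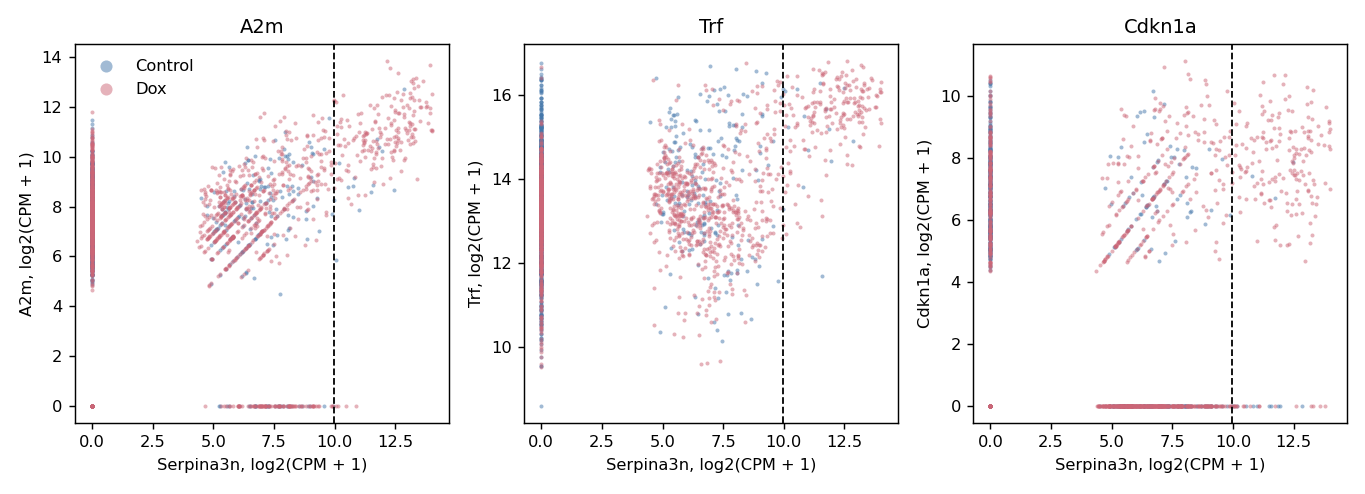
A2m, Trf and Cdkn1a against Serpina3n, as log2(CPM + 1), in single control (blue) and Dox (red) RPE cells; the dashed line marks 1000 CPM of Serpina3n, and points on an axis are cells without a UMI of that gene. A2m and Trf were high right of the line (2666 and 57464 CPM in Dox), while Cdkn1a ranged widely on both sides.

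Thinned to 5000 UMIs, 71.6% of 169 Dox high cells had a UMI of Cdkn1a, against 18.6% of 1217 Dox low cells and 15.8% of 1302 control low cells. Cells outside the RPE rule also held Cdkn1a: 46.6% of 116 Dox and 58.4% of 190 control cells with leukocyte markers had a UMI of it, and over all cells outside the rule it was at 359 CPM in Dox and 398 CPM in control, above the 308 CPM of the Dox high cells. For Gsta3 the shares were 59.8% in Dox high, 7.48% in Dox low and 66.7% in the 12 control high cells deep enough. In the 116 Dox cells with at least 3 UMIs of leukocyte markers and 5000 UMIs in all, a type that should lack Gsta3, it was 6.9%; the other 161 of 277 such cells were shallower, and the median depth of all 277 was 4392 UMIs. Without thinning, 85.7% of Dox high and 16.6% of Dox low cells had a Gsta3 UMI.

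Finally, the selected cells of the libraries were compared with each other. Of 2636 genes, 66 (2.5%) were at least 2-fold higher and 66 (2.5%) at least 2-fold lower in Dox high than in control high cells. Which direction held more genes turned with the settings given in the last section. Melanocyte markers summed to 1724 CPM in Dox high and 3060 CPM in control high cells, and fibroblast markers to 416 and 775 CPM. Macrophage and smooth muscle sums were lower too. Endothelial (23.3 and 10.3 CPM), Schwann cell (77.8 and 72.4 CPM) and Müller glia (1314 and 762 CPM) sums were higher. NK and T cell, rod and red blood cell sums were 3.09, 1.85 and 0.617 CPM in Dox high cells. They were at 0 in the far fewer control high UMIs, so no direction is given for them. At the lower floor of 20 UMIs, where 7.94% of 9645 genes were past 2-fold higher, 17 of 27 interferon-stimulated genes (median 1.58) and 12 of 33 p53 targets (median 0.79) were. Sult1c1, a sulfotransferase, was at 376 CPM in Dox high and 12.9 CPM in control high cells, on 5 UMIs, and Mest at 232 and 23.3 CPM on 9 UMIs. Hmox1 (heme oxygenase 1) was lower, at 54.5 against 300 CPM, but 78.4% of its control UMIs came from 1 of the 13 cells, as did 69.9% of those of Igfbp2 and 80.0% of those of Spp1. Acute-phase and lysosomal lists had medians of 0.28 and -0.03.

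Within the control library, 79 of 2778 genes (2.84%) were at least 2-fold higher and 122 (4.39%) at least 2-fold lower in the 13 high cells than in the 1487 low cells. Of the 2573 genes measured in both libraries, 53 were 2-fold higher in Dox high and 55 in control high cells, and 27 were in both sets, 50.9% of the first and 49.1% of the second. Of 81 lower in Dox high and 107 lower in control high cells, 35 were in both, and 0 genes were past 2-fold in opposite directions. Each of these sets was a small part of the 2573 genes, so nothing is read from the 0. The Serpina3n-low cells of the libraries differed in 0 genes (0%) higher and 8 (0.304%) lower in Dox past 2-fold, of 2635. Markers of most other cell types were lower in Dox low than in control low cells. Melanocyte markers summed to 1646 against 2689 CPM, macrophage markers to 190 against 366 CPM and fibroblast markers to 1137 against 1747 CPM. NK and T cell, smooth muscle, endothelial and Schwann cell sums were lower too. Müller glia (1006 against 944 CPM), rod (2.25 against 1.42 CPM) and red blood cell sums (1.22 against 1.03 CPM) were higher. Pmel, Mlana, S100b, Cd74 and Lyz2 were among the 8 genes. Without the RPE cells of most other-type RNA more genes were lower, as given in the last section, and the cause of that was not tested. Ifi27 had the highest ratio, at 491 CPM in Dox low and 253 CPM in control low cells, a log2 ratio of 0.95. Of 31 interferon-stimulated genes with at least 20 UMIs, 23 were higher and 8 lower in Dox low than in control low cells (median 0.55). Over all 14025 such genes 50.3% were higher, with a median of 0.0011. The interferon list summed to 1924 CPM in Dox low and 1281 CPM in control low cells.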

How the data were processed

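The authors sequenced 1 library per condition by the 10x 5′ method and deposited, per library, the filtered matrix of UMI counts per gene and cell. The version recorded with these counts was Cell Ranger 4.0.0, on mm10, and the paper names this version and also a later one. These deposited counts were used as they are, and 0 per-sample columns were left unused. Cells with over 500 UMIs, 200 to 6000 genes and a mitochondrial share under 0.2 were kept. UMIs were summed per group, and log2 ratios of CPM were given with 0.5 counts added and exact conditional binomial intervals, with Poisson intervals for CPM and Clopper-Pearson intervals for shares. With 1 library per condition no test over samples was possible, and treatment and library cannot be told apart. The members and the gene lists were chosen with earlier results of these data known. Genes named are the markers of the rule, the 15 largest rises and falls in Dox high against Dox low cells, the 10 largest of each between the high cells, and the most abundant and most changed genes of each list. Some further list members were named after their values were seen. Mx1, Mx2 and Serpina3h of the lists were not matched in the files. Doublets were not removed. As an alternative, the cells of highest Scrublet score (scanpy 1.11.5) were left out. The ratio scripts were tested on simulated data. Scripts ran in Python 3.11.15 with scipy 1.17.1, pandas 2.3.3 and numpy 2.4.6.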

Additional observations from a re-analysis of the deposited data

Results flagged for a closer look

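Serpina3n was also present in Dox cells outside the RPE rule, which the comparisons do not use: it was at 294 CPM (290 to 298) in these 13850 cells and at 56.3 CPM (54.7 to 57.8) in the 18689 control cells outside the rule. It drew attention as a signal outside the main measurement above the level of the control library. Among these cells it was at 190 CPM in Dox cells with at least 5 UMIs of fibroblast markers, against 60.3 CPM in control, and at 660 CPM in Dox cells with at least 3 UMIs of leukocyte markers, against 25.1 CPM. In these cells Trf was at 5389 against 1488 CPM and A2m at 170 against 23.9 CPM, and 28.4% of 116 such Dox cells had a Serpina3n UMI after thinning to 5000 UMIs, against 11.1% of 190 control cells. In the 1156 Dox cells with at least 10 UMIs of melanocyte markers it was at 1910 CPM, with 548 CPM of Rpe65 and 18429 CPM of Trf, and in the 7487 such control cells at 58.4 CPM, with 293 CPM of Rpe65 and 3494 CPM of Trf. Free RNA in the droplets and RPE cells under the Rpe65 bound were not tested as sources.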

How the results depend on the processing

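No paired analysis was possible because each condition had 1 library. With a Rpe65 bound of 3000 CPM there were 45 Dox and 7 control high cells (3.62% of Dox RPE cells), 48 genes lower in Dox high than Dox low, 128 higher and 184 lower in control high than control low, and 140 higher and 39 lower in Dox high than control high cells. A Serpina3n threshold of 500 CPM gave 28 control cells (1.87%), 14.9% of Dox RPE cells, and 52 genes higher and 56 lower within control. A threshold of 2000 CPM gave 8 control cells, 9.47% of Dox RPE cells, 145 genes higher within control, and 152 lower between the high cells. Without the limit on genes per cell, 39 were lower between the high cells. Within 10000 to 40000 UMIs the Dox share was 13.7%, and 5 genes were lower in Dox low than control low cells, against 19 without the cells of most other-type RNA. The mean of the cells' own CPM gave 120 higher and 246 lower within control, and 121 higher between the high cells. Thinning to 5000 UMIs gave 140 lower within Dox, 615 and 351 within control, and 195 and 112 between the high cells. A floor of 100 UMIs and 100 CPM gave 47 lower within Dox, 48 and 60 within control, 39 and 30 between the high cells and 5 lower between the low cells. With 20 UMIs and no floor on CPM these counts were 338 and 1346 within Dox, 1147 and 1581 within control, 766 and 673 between the high cells, and 75 and 415 between the low cells. Leaving out 1 control high cell at a time, chosen as a check after seeing the data, gave 73 to 90 higher and 116 to 149 lower within control, and 62 to 78 higher and 60 to 81 lower between the high cells. The median of the immediate early list was 0.0074 with a Rpe65 bound of 3000 CPM, 0.23 without the highest doublet scores, 0.54 without the most fibroblast RNA, 0.37 without the most other-type RNA and 0.082 within 10000 to 40000 UMIs. The ribosomal protein median was 0.0072 without the highest doublet scores and 0.013 without the most other-type RNA, and the Apod ratio was 0.063 without the most fibroblast RNA. The cause of these shifts was not tested. In all, 39 of 557 list medians under the alternatives had the other sign, in 11 of 31 lists, those of reactive glia (-0.14, up to 1.23) and serpins (-0.64, up to 0.34) among them. The p53, interferon, MHC class I, lysosome, visual cycle and acute-phase medians kept their sign, and of 30 named genes 1, Apod, changed it. The interferon median stayed between 0.78 and 0.997 and the p53 median between 0.86 and 0.98. The 13 control high cells limit the precision of every comparison that uses them.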
